A study of Homo sapiens with 6 samples.

Results

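Genes of DNA replication and of entry into S phase were followed in HFF cells, human foreskin fibroblasts obtained from a cell bank. The set holds 34 genes, all of them chosen by name from the 61806 genes of the deposited table. The UVB + sauchinone group received 40 mJ per cm2 of UVB, ultraviolet light that DNA absorbs and that links neighbouring pyrimidines, and was cultured for 48 h with 10 µM sauchinone, a plant lignan. The UVB group was irradiated in the same way and cultured for 48 h with vehicle. Each group has 3 RNA sequencing libraries of wild-type cells, and the question was how the compound altered expression in irradiated dermal fibroblasts. Unirradiated cells were not analysed here, so every value compares irradiated cells with irradiated cells. Nothing in the labels says that replicates came from separate cultures, so p-values measure the spread between these libraries, which may be technical. Each label names the same batch. The protocol also describes a version in which sauchinone was given before irradiation, and which of the versions was sequenced is not stated.

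In G1 phase, the origin recognition complex, CDC6 and CDT1 load the ring of MCM2 to MCM7 onto origins, which licenses them. Cyclin E with its kinase and the E2F transcription factors drive the step into S phase, when CDC45 and the GINS complex turn the ring into an active helicase and the polymerases start synthesis. Many of the genes of this machinery are known E2F targets. UVB lesions stall replication forks, and skin fibroblasts answer with p53, whose known targets include PCNA and RRM2B.

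The libraries held 20984851 to 23076388 counts, and 15704 genes passed the filter on low counts. A floor of 3 counts equalled 0.130 to 0.143 CPM on library totals alone, which allows for counting error only. All other CPM are counts scaled to library size and composition. All 10 fibroblast markers were detected, and 9 of them were lower with sauchinone, their summed level being 13577 to 13878 CPM in UVB + sauchinone and 19312 to 21065 CPM in UVB. Markers of other cell types were low. The summed level of 8 keratinocyte markers was 14.0 to 14.9 CPM in UVB + sauchinone and 11.4 to 12.4 CPM in UVB, mostly from KRT10, with KRT5, KRT1 and DSG3 at 0. For 7 melanocyte markers the sums were 43.4 to 44.2 CPM in UVB + sauchinone and 56.0 to 64.3 CPM in UVB, nearly all from MITF, with DCT at 0. For 7 endothelial markers they were 2.55 to 3.39 CPM in UVB + sauchinone and 6.81 to 8.09 CPM in UVB, with CDH5 and KDR at 0. The part of these marker shifts in the results on replication genes was not tested.

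The machinery of replication did not move as one block with sauchinone. Of the 33 members tested, 7 rose, 13 fell and 13 did not pass edgeR's quasi-likelihood test at a Benjamini-Hochberg adjusted p under 0.05, and E2F2 had too few counts to be tested. Among the members, CCNE1 and PCNA had the largest rises and POLA1 the largest fall, and RRM1, RRM2 and TYMS, which supply deoxynucleotides, were lower as well. The call of TYMS was lost in 8 of 17 alternative analyses, and RRM2B and TK1, which also supply deoxynucleotides, did not pass. Over all tested genes 49.6% passed, 24.7% higher and 24.9% lower, against 60.6% of the members. The median log2 fold change was −0.056 over the members and 0.0071 over all tested genes. The libraries of one group all lay above those of the other in 23 members (69.7%) and in 57.1% of all tested genes. A call with a change of at least 1.5-fold was made in 8 members (24.2%) and in 25.1% of all tested genes. With so large a share of all genes past the threshold, the count of members called sets them little apart by itself. By direction, 13 of 33 members fell, against 24.9% of all tested genes, and 7 of 33 rose, against 24.7%. This lean to lower was not tested. Of the 20 calls, 10 passed in all 17 alternative analyses, 3 of them higher (CCNE1, PCNA and GINS3) and 7 lower (POLA1, RRM1, RRM2, GINS1, CDC45, CDC6 and RPA1). The count of risen members was 4 without UVB replicate 1, 4 without UVB + sauchinone replicate 2, 4 without a filter on low counts and 3 with a trend of counts with genomic span removed. In bulk libraries, fewer cells in S phase and less RNA per cell cannot be told apart.

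**Figure D1:**
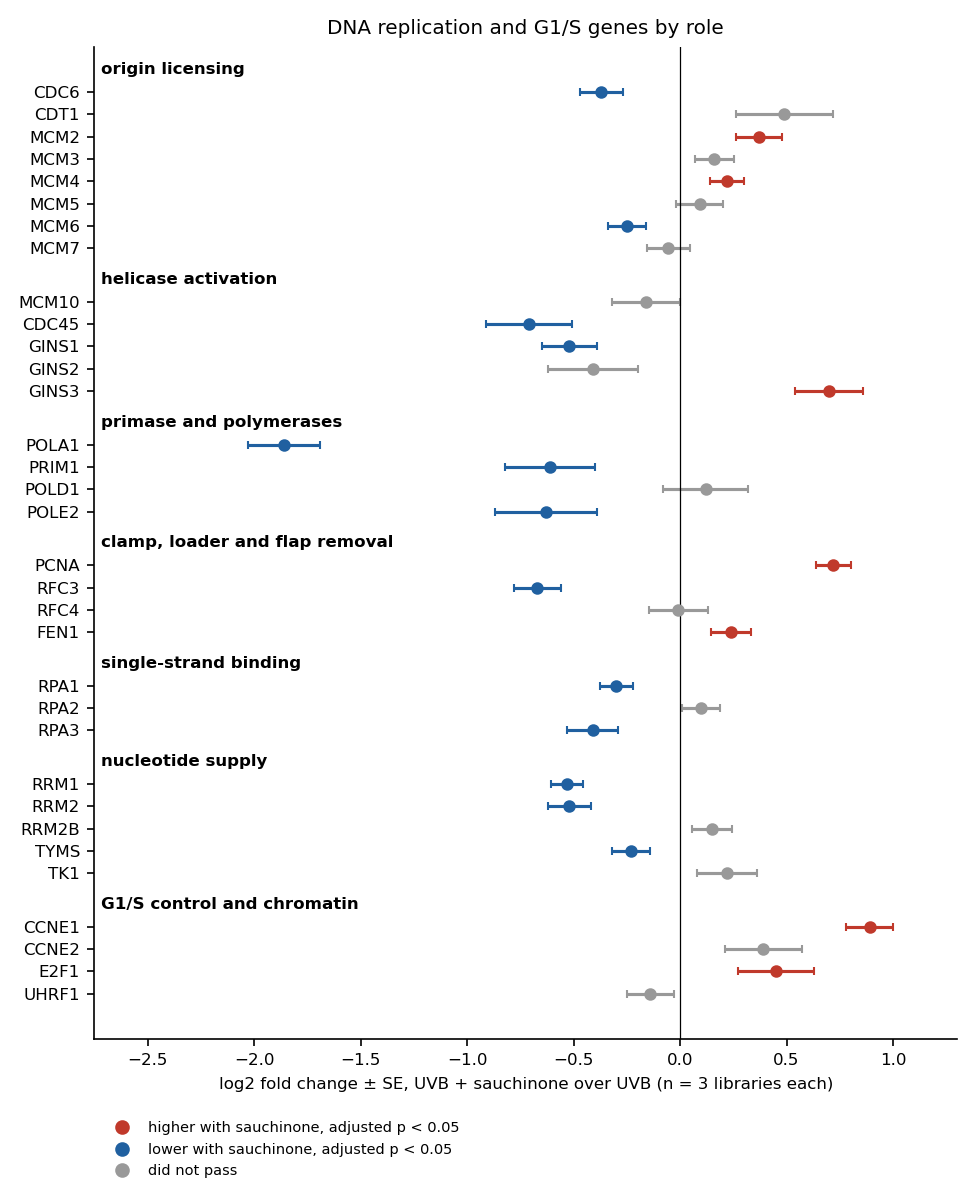
Log2 fold change of UVB + sauchinone over UVB for the 33 tested members, grouped by role, with 3 libraries in each group; points are edgeR estimates, bars are standard errors, and colour shows whether the member passed at an adjusted p under 0.05. Cyclin E1, GINS3 and PCNA stand at the right, POLA1 stands alone at −1.86, and the other fallen members lie between −0.71 and −0.23.

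Among the genes of G1/S control and chromatin, CCNE1 and E2F1 rose, and CCNE2 and UHRF1 did not pass. CCNE1 encodes cyclin E1, which activates CDK2 at the start of S phase, and lies on chromosome 19 at 29811991 to 29824312 (GRCh38, plus strand). It had 470, 492 and 490 counts in UVB + sauchinone replicates 1, 2 and 3, against 252, 231 and 261 counts in UVB replicates 1, 2 and 3. The groups were far apart for their spread, with a mean of 21.2 ± 0.148 CPM in UVB + sauchinone and 11.5 ± 0.718 CPM in UVB (SD, n = 3 each). The rise was 1.85-fold, or a log2 change of 0.89 with an SE of 0.11 (edgeR adjusted p = 7.7e-07), and it passed under all 17 alternative analyses. CCNE2, the gene of the paralog cyclin E2, had 5.61, 5.92 and 4.71 CPM in UVB + sauchinone, against 4.04, 3.84 and 4.50 CPM in UVB. Its groups did not overlap, but the log2 fold change of 0.39 ± 0.18 did not pass (edgeR adjusted p = 0.073), though it passed with library totals as the only scaling (0.43) and with a GC trend removed (0.62). Per length, in the authors' FPKM (counts scaled to exonic size and library total), the ratio of CCNE1 to CCNE2 was 6.78, 6.41 and 7.96 in UVB + sauchinone and 5.36, 5.00 and 4.55 in UVB. A two-sided exact permutation test gave p = 0.10, the smallest that 3 against 3 libraries allow, and 0.10 after adjustment over 3 ratios. The ratio draws on the rise of CCNE1 already given and is no separate support for that call.

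E2F1, a transcription factor that activates S phase genes, lies on chromosome 20 at 33675477 to 33686385 (minus strand). It had 5.15, 5.44 and 5.44 CPM in UVB + sauchinone, against 3.75, 4.49 and 3.53 CPM in UVB. The groups did not overlap, and the log2 fold change was 0.45 ± 0.18 (edgeR adjusted p = 0.040). This call depended on the settings. It was lost in 11 of 17 alternatives, among them DESeq2 (0.44), all 3 corrections for gene properties (0.19 to 0.32), and the fits without UVB replicate 1 or 3 (0.41 and 0.37) or without UVB + sauchinone replicate 1, 2 or 3 (0.47, 0.43 and 0.44), with adjusted p from 0.024 to 0.38 over all alternatives. E2F2, another activating member of the family, had 8, 4 and 4 counts in UVB + sauchinone and 10, 5 and 7 counts in UVB, too few to tell the groups apart at this depth. UHRF1, which recruits the maintenance methyltransferase to newly copied DNA, was at 17.2 ± 1.43 CPM in UVB + sauchinone and 19.0 ± 1.21 CPM in UVB and did not pass (−0.14), though it passed with the GC trend removed (−0.34).

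Letters that match E2F motifs stood in the promoters of risen and fallen members alike. RefSeq promoter sequences (GRCh38.p14, 250 bases before to 50 after each listed start) were matched for 28 of the 34 members. The octamers TTTCCCGC, TTTCGCGC, TTTGCCGC and TTTGGCGC, sought on both strands, were found in 17 of these 28 (60.7%), against 6.55% of the 11104 tested genes with a promoter entry. By direction they were held by 4 of 6 members that rose, 7 of 12 that fell and 5 of 9 that did not pass. The CCAAT box, searched on both strands and neither containing an octamer nor contained in one, was in 2 of 6 that rose, 9 of 12 that fell and 6 of 9 that did not pass, or 60.7% of the members and 43.0% of the tested genes. A match is only a run of letters and not a measured binding site. The stretches upstream of 2 members that rose and 2 that fell are shown because they hold the same kind of octamer, in capitals, at different distances from the start. Of these 4 members, E2F1 lost its call in 11 of 17 alternative analyses and MCM6 in 5 of 17. The window of CCNE1 holds none.
PCNA (chr20:5126627-5126872, minus strand): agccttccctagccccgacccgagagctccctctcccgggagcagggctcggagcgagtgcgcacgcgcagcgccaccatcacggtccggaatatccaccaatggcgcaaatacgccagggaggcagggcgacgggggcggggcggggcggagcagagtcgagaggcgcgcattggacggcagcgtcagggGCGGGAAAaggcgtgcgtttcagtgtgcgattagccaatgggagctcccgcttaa
E2F1 (chr20:33686386-33686635, minus strand): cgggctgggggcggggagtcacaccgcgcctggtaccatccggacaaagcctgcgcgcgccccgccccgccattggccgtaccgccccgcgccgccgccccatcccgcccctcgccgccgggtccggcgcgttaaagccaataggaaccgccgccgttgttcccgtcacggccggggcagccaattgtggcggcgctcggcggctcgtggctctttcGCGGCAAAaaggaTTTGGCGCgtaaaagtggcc
POLA1 (chrX:24693668-24693872, plus strand): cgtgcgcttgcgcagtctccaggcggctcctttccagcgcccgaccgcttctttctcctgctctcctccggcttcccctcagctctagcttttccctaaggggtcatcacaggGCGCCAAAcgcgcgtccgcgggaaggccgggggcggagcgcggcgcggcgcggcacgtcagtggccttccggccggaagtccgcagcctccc
MCM6 (chr2:135876444-135876693, minus strand): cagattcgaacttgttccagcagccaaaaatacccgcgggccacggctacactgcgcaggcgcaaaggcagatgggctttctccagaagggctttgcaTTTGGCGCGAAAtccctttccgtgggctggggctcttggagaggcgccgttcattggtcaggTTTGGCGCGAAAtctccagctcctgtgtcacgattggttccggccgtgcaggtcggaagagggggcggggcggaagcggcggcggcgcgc
Each is written 5′ to 3′ on the strand of the gene and stops before the first base of the gene as deposited. In MCM6 pairs of octamers on opposite strands overlap, so that each capital run holds a match on both strands. Counted from the RefSeq start, the octamer began at −59 in PCNA, at −33 and −20 in E2F1, at −137 in POLA1, and at −152, −148, −90 and −86 in MCM6.

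Origin licensing genes went both ways, with MCM2 and MCM4 higher, CDC6 and MCM6 lower, and CDT1, MCM3, MCM5 and MCM7 not passing. CDC6, the loader that brings the MCM ring to origins, had 19.0, 19.4 and 20.4 CPM in UVB + sauchinone, against 24.6, 27.2 and 24.2 CPM in UVB. It was lower in each library with sauchinone, by 0.37 ± 0.10 on the log2 scale (edgeR adjusted p = 0.0044), and passed under every one of the 17 alternatives. CDT1, its partner in loading, had only 2.80, 2.55 and 3.09 CPM in UVB + sauchinone and 1.78, 1.99 and 2.21 CPM in UVB. The groups did not overlap, yet the log2 fold change of 0.49 ± 0.23 did not pass (edgeR adjusted p = 0.083).

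Within the MCM2 to MCM7 ring, whose subunits assemble in equal number, the transcripts went different ways by small amounts. MCM2 had 19.4, 19.0 and 18.6 CPM in UVB + sauchinone, against 16.0, 15.3 and 12.9 CPM in UVB, a log2 change of 0.37 ± 0.11 (edgeR adjusted p = 0.010). MCM4 had 80.0, 88.1 and 89.8 CPM in UVB + sauchinone, against 71.4, 74.9 and 74.5 CPM in UVB, a change of 0.22 ± 0.081 (edgeR adjusted p = 0.025). MCM6 had 41.4, 41.0 and 46.2 CPM in UVB + sauchinone, against 53.9, 49.9 and 49.1 CPM in UVB, a change of −0.25 ± 0.089 (edgeR adjusted p = 0.024). None of these 3 subunits overlapped between the groups, and none of the changes exceeded 1.29-fold. The groups of MCM3, MCM5 and MCM7 overlapped, with log2 fold changes of 0.16 for MCM3, 0.092 for MCM5 and −0.056 for MCM7. With the span trend removed MCM7 passed, at −0.25 (edgeR adjusted p = 0.039, and 0.039 to 0.99 over all alternatives). Per length, MCM3 had the highest and MCM5 the lowest FPKM of the ring in every library. This order depends on the deposited exonic sizes, 3.65 kb for MCM3, 9.85 kb for MCM4 and 7.27 kb for MCM5. In CPM, MCM4 was the highest of the ring in every library, and MCM2 and MCM5 each averaged 19.0 in UVB + sauchinone. MCM3 averaged 15.8 ± 1.30 FPKM in UVB + sauchinone and 13.7 ± 1.01 FPKM in UVB, and MCM5 averaged 2.65 ± 0.345 FPKM in UVB + sauchinone and 2.41 ± 0.0850 FPKM in UVB (SD, n = 3 each). The span between them within a library, 4.91-fold to 6.65-fold in FPKM, was wider than any subunit's difference between the groups. Its size depends on the same exonic sizes. The MCM2 call was lost when a trend of counts with genomic span or with GC content was removed (0.27 and 0.18, adjusted p from 0.0047 to 0.13 over all alternatives). MCM4 lost its call with the span trend removed, without a filter on low counts, and without UVB replicate 1 or UVB + sauchinone replicate 2 or 3 (0.085, 0.22, 0.20, 0.20 and 0.19, adjusted p from 3.3e-04 to 0.39), and MCM6 lost its call with library totals as the only scaling, with the GC trend removed, and without UVB replicate 1 or UVB + sauchinone replicate 1 or 2 (−0.20, −0.078, −0.21, −0.22 and −0.22, adjusted p from 0.0048 to 0.43).

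Among the genes that activate the helicase, CDC45 and GINS1 fell and GINS3 rose. CDC45, which joins the MCM ring at firing origins, had 4.48, 2.94 and 3.17 CPM in UVB + sauchinone, against 6.07, 6.48 and 4.81 CPM in UVB. All libraries with sauchinone were below all others, and the fall was 1.64-fold, or −0.71 ± 0.20 on the log2 scale (edgeR adjusted p = 0.0044). The GINS complex is built of one copy each of its subunits, and its genes moved apart. GINS1 had 11.98, 9.51 and 11.5 CPM in UVB + sauchinone, against 15.3, 17.5 and 14.7 CPM in UVB, a log2 change of −0.52 ± 0.13 (edgeR adjusted p = 0.0016). GINS3 had 6.96, 6.31 and 6.77 CPM in UVB + sauchinone, against 4.19, 4.31 and 3.84 CPM in UVB, a change of 0.70 ± 0.16 (edgeR adjusted p = 0.0012). Neither gene overlapped between the groups, and all 3 calls passed in every alternative run. Per length, the GINS3 to GINS1 ratio in FPKM was 0.908, 1.04 and 0.925 in UVB + sauchinone and 0.431, 0.385 and 0.411 in UVB, without overlap (two-sided exact permutation test, p = 0.10, the smallest possible, and 0.10 adjusted over 3 ratios). As the genes moved in opposite directions without overlap, their ratio had to separate, and it adds nothing to the calls of GINS1 and GINS3. GINS2 had 3.80, 3.67 and 3.90 CPM in UVB + sauchinone and 4.09, 6.95 and 4.10 CPM in UVB, where replicate 2 stood apart, and did not pass (−0.41 ± 0.21, edgeR adjusted p = 0.11). The change of GINS2 was −0.12 without UVB replicate 2 and −0.55 without UVB replicate 3, where it passed, as it did with the span, exonic size or GC trend removed (−0.57, −0.51 and −0.51, adjusted p from 0.024 to 0.68 over all alternatives). MCM10, a scaffold of helicase activation, was at 5.84 ± 0.775 CPM in UVB + sauchinone and 6.54 ± 0.384 CPM in UVB and did not pass. The deposited span of GINS3, 111 kb on chromosome 16, far exceeds its RefSeq length of 13.7 kb, so corrections by span are uncertain for this gene.

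Of the genes of primase and the polymerases in the set, POLA1, PRIM1 and POLE2 fell and POLD1 did not pass. POLA1, the catalytic subunit of DNA polymerase alpha, lies on the X chromosome at 24693873 to 24996986 (plus strand). Its level was 2.94, 3.80 and 3.09 CPM in UVB + sauchinone, against 11.2, 10.1 and 14.4 CPM in UVB. The highest library with sauchinone stood far below the lowest without it, and the fall was 3.62-fold, or −1.86 ± 0.17 on the log2 scale (edgeR adjusted p = 8.1e-09). It was the largest change of any member, in the longest member gene, at 303 kb. With the trend of counts with span removed it was −1.04, still past the threshold, as it was in all alternatives (−1.98 to −1.04). A pseudogene, EEF1B2P3, lies on the opposite strand within POLA1 and was higher with sauchinone, at 0.42 (edgeR adjusted p = 0.0032). PRIM1, the catalytic subunit of primase, had 3.93, 3.02 and 2.57 CPM in UVB + sauchinone, against 5.87, 4.08 and 4.63 CPM in UVB, a change of −0.61 ± 0.21 (edgeR adjusted p = 0.017). POLE2, the second subunit of DNA polymerase epsilon, had 1.67, 2.64 and 2.44 CPM in UVB + sauchinone, against 3.47, 2.78 and 4.19 CPM in UVB, a change of −0.63 ± 0.24 (edgeR adjusted p = 0.032). Both stayed below the UVB libraries in all 3 libraries with sauchinone, by a small margin. POLD1, the catalytic subunit of DNA polymerase delta, was at 5.12 ± 0.545 CPM in UVB + sauchinone and 4.71 ± 1.26 CPM in UVB and did not pass. The PRIM1 call was lost with the GC trend removed and without UVB replicate 1 or UVB + sauchinone replicate 2 or 3 (−0.40, −0.46, −0.58 and −0.48, adjusted p from 0.0044 to 0.12), and that of POLE2 with the GC trend removed and without UVB replicate 1, UVB replicate 3 or UVB + sauchinone replicate 1 (−0.36, −0.63, −0.47 and −0.45, adjusted p from 0.010 to 0.18). PRIM1 overlaps HSD17B6 on the opposite strand by 214 bases, and HSD17B6 was lower too (−1.83). It also overlaps NACA on the same strand by 333 bases, and NACA did not pass (−0.015).

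PCNA, the sliding clamp that holds polymerases on DNA and directs repair synthesis, rose. It lies on chromosome 20 at 5114953 to 5126626 (minus strand), and its level was 255, 288 and 232 CPM in UVB + sauchinone, against 162, 153 and 153 CPM in UVB. The groups were separate by a wide margin, and the rise was 1.65-fold, or 0.72 ± 0.080 on the log2 scale (edgeR adjusted p = 1.2e-07), past the threshold in all 17 alternatives. Per length it was the most abundant member in each library, at 186 ± 18.8 FPKM in UVB + sauchinone and 109 ± 4.21 FPKM in UVB (SD, n = 3 each). In CPM, RRM2B was higher than PCNA in every library. RFC3, a subunit of the clamp loader that places PCNA on DNA, went the other way, with 17.4, 14.1 and 15.0 CPM in UVB + sauchinone, against 23.4, 26.1 and 24.5 CPM in UVB. It fell by 0.67 ± 0.11 on the log2 scale (edgeR adjusted p = 2.7e-05), without overlap. Its span of 148 kb is the second longest of the set, and with the span trend removed the change was −0.26 and did not pass (adjusted p from 1.3e-07 to 0.059 over all alternatives). RFC4, another loader subunit, had 8.95, 11.9 and 12.3 CPM in UVB + sauchinone and 10.2, 11.3 and 11.9 CPM in UVB, with overlapping groups. FEN1, the nuclease that trims the flaps between Okazaki fragments, had 40.0, 40.4 and 34.8 CPM in UVB + sauchinone, against 31.9, 33.8 and 31.9 CPM in UVB. The groups did not overlap, but the log2 fold change of 0.24 ± 0.094 (edgeR adjusted p = 0.038) lost its call in 8 of 17 alternatives, including each correction for gene properties (0.019 to 0.11) and the fits without UVB replicate 1 or UVB + sauchinone replicate 1 or 2 (0.22, 0.21 and 0.20), with adjusted p from 0.015 to 0.88. FEN1 overlaps the deposited span of FADS2 on the same strand by 4.26 kb of its 4.33 kb, and FADS2 was lower (−0.41).

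Of the subunits of replication protein A, which coats single-stranded DNA, the largest and the smallest fell. RPA1 had 90.5, 91.8 and 90.5 CPM in UVB + sauchinone, against 114, 116 and 106 CPM in UVB, a log2 change of −0.30 ± 0.077 (edgeR adjusted p = 0.0024). RPA3 had 13.6, 10.8 and 11.7 CPM in UVB + sauchinone, against 15.7, 16.6 and 15.6 CPM in UVB, a change of −0.41 ± 0.12 (edgeR adjusted p = 0.0074). Neither overlapped between the groups. RPA2, the middle subunit, which checkpoint kinases phosphorylate, had 44.4, 41.5 and 45.3 CPM in UVB + sauchinone and 39.1, 43.4 and 39.9 CPM in UVB, with overlap, and did not pass (0.10 ± 0.089; edgeR adjusted p = 0.37). RPA1 passed in all alternatives, with a change of −0.19 once the span trend was removed. RPA1 overlaps SMYD4 on the opposite strand by 933 bases, and SMYD4 was higher (0.39, edgeR adjusted p = 0.0078). On that strand RPA1 also overlaps, by 408 bases, a gene without a symbol that was lower (−0.96, edgeR adjusted p = 0.049). RPA3 did not pass with the span or GC trend removed (−0.26 and −0.24, adjusted p from 9.2e-04 to 0.086), and it overlaps UMAD1 on the opposite strand by 77.9 kb, where UMAD1 was lower as well (−1.33, edgeR adjusted p = 4.2e-07).

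The genes that supply deoxynucleotides fell or did not pass. RRM1, the large subunit of ribonucleotide reductase, had 91.7, 93.0 and 91.6 CPM in UVB + sauchinone, against 128, 136 and 135 CPM in UVB. These are tight, separate groups, and the fall was 1.44-fold, or −0.53 ± 0.075 on the log2 scale (edgeR adjusted p = 3.7e-06). RRM2, the small subunit of dividing cells, had 42.2, 38.6 and 31.7 CPM in UVB + sauchinone, against 49.4, 59.8 and 52.1 CPM in UVB. It fell by 0.52 ± 0.10 on the log2 scale (edgeR adjusted p = 2.6e-04), and both calls held in all alternatives, with the change of RRM2 at −0.33 once the span trend was removed. RRM2B, the p53-induced small subunit used for repair, had 270, 320 and 287 CPM in UVB + sauchinone and 256, 227 and 308 CPM in UVB. The groups overlapped and it did not pass (0.15 ± 0.092; edgeR adjusted p = 0.19). It passed without UVB replicate 3, its highest UVB library, at 0.27, and with the GC trend removed, at 0.34 (adjusted p from 9.1e-05 to 0.66 over all alternatives).

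Per length, RRM2B was by far the more abundant small subunit in these irradiated cells, at 54.9 ± 4.31 FPKM in UVB + sauchinone and 48.1 ± 7.60 FPKM in UVB, while RRM2 averaged 4.16 ± 0.593 FPKM in UVB + sauchinone and 5.77 ± 0.548 FPKM in UVB (SD, n = 3 each). The size of this gap depends on the deposited exonic sizes, 5.39 kb for RRM2B and 9.15 kb for RRM2. Mean CPM in UVB + sauchinone was 292 for RRM2B and 37.5 for RRM2, and in UVB 264 for RRM2B and 53.8 for RRM2. The FPKM ratio of RRM2 to RRM2B was 0.0922, 0.0710 and 0.0652 in UVB + sauchinone and 0.114, 0.156 and 0.0995 in UVB. The ratios did not overlap, with the highest UVB + sauchinone library just below the lowest UVB library (two-sided exact permutation test, p = 0.10, the smallest possible, and 0.10 adjusted over 3 ratios). The ratio draws on the fall of RRM2 already given and is no separate support for that call. TYMS, which makes thymidylate, had 39.0, 36.6 and 36.6 CPM in UVB + sauchinone, against 43.4, 46.3 and 41.9 CPM in UVB. It was lower in each library with sauchinone, by a small amount of −0.23 ± 0.089 (edgeR adjusted p = 0.035). The threshold was missed in 8 of 17 alternatives, among them library totals as the only scaling (−0.19), no filter on low counts (−0.24), and the fits without UVB replicate 1 or 2 or UVB + sauchinone replicate 1, 2 or 3 (−0.24, −0.19, −0.26, −0.22 and −0.21), with adjusted p from 6.9e-04 to 0.11. TYMS shares 3.26 kb with ENOSF1 on the opposite strand, which did not pass. TK1, the thymidine salvage kinase, had 25.0, 17.6 and 19.97 CPM in UVB + sauchinone and 19.3, 20.7 and 13.7 CPM in UVB, with overlapping groups, and did not pass (0.22 ± 0.14), though it passed without UVB replicate 2 (0.34, with edgeR adjusted p = 0.048; 0.048 to 0.90 over all alternatives).

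**Figure D2:**
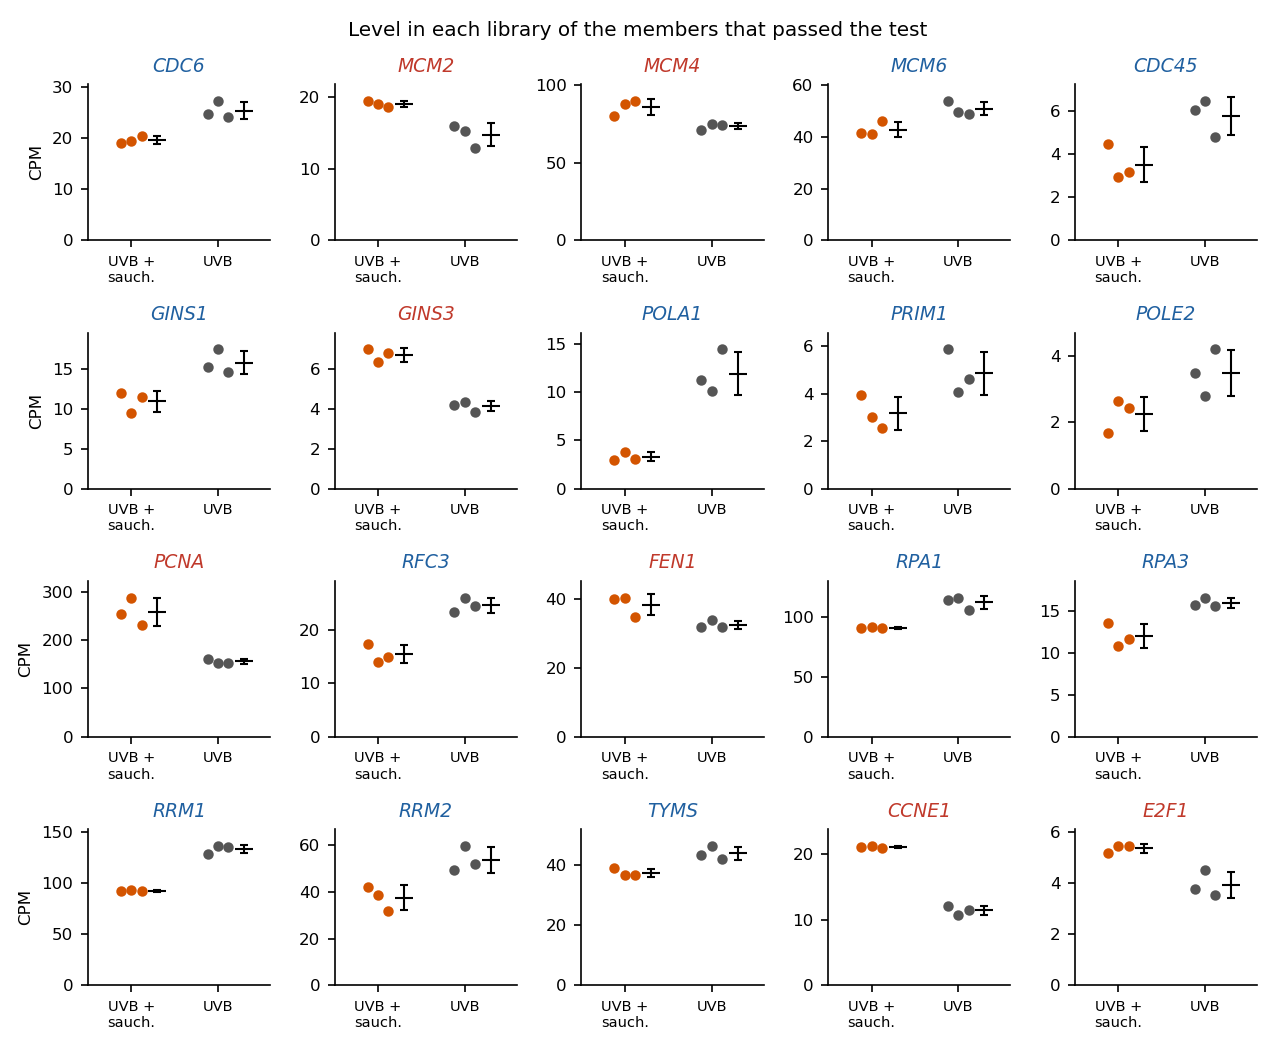
CPM in each of the 3 UVB + sauchinone libraries (orange, left) and the 3 UVB libraries (grey, right) for the 20 members that passed the test, with the mean and SD as a black bar beside each group and axes that start at 0. Gene names are red where the member was higher with sauchinone and blue where it was lower, and the separation is widest for POLA1, at 3.28 CPM against 11.9 CPM, and CCNE1.

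Short members tended to be higher with sauchinone and long members lower. Of the 13 members under 20 kb, 5 rose and 2 fell, against 32.4% higher and 10.3% lower among all tested genes of that span. Of the 12 members of 20 to 50 kb, 1 rose (MCM2) and 5 fell, against 28.1% and 19.2% of all tested genes. Of the 8 members of 50 kb or more, 1 rose (GINS3) and 6 fell, against 12.7% and 47.0% of all tested genes. These spans are the deposited ones, and by RefSeq length 3 members would change class: GINS3 (13.7 kb, deposited as 111 kb), GINS1 (40.9 kb, deposited as 61.7 kb) and MCM5 (54.9 kb, deposited as 25.3 kb). Across the 33 members, which share the same 6 libraries, the Spearman correlation of log2 fold change with span was −0.59, and −0.55 without POLA1, against −0.39 across all 15704 tested genes. With the GC content of the transcripts it was 0.49 across members and 0.33 across tested genes. These are descriptions across genes, which are not independent replicates. All tested genes under 20 kb also leaned higher, and those of 50 kb or more leaned lower. In the class of 20 to 50 kb, all tested genes leaned higher, with a median log2 fold change of 0.047. The members of that class leaned lower, with a median of −0.036. The part of the trends with span and GC content in the members' changes was not tested beyond the fits with such a trend removed.

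**Figure D3:**
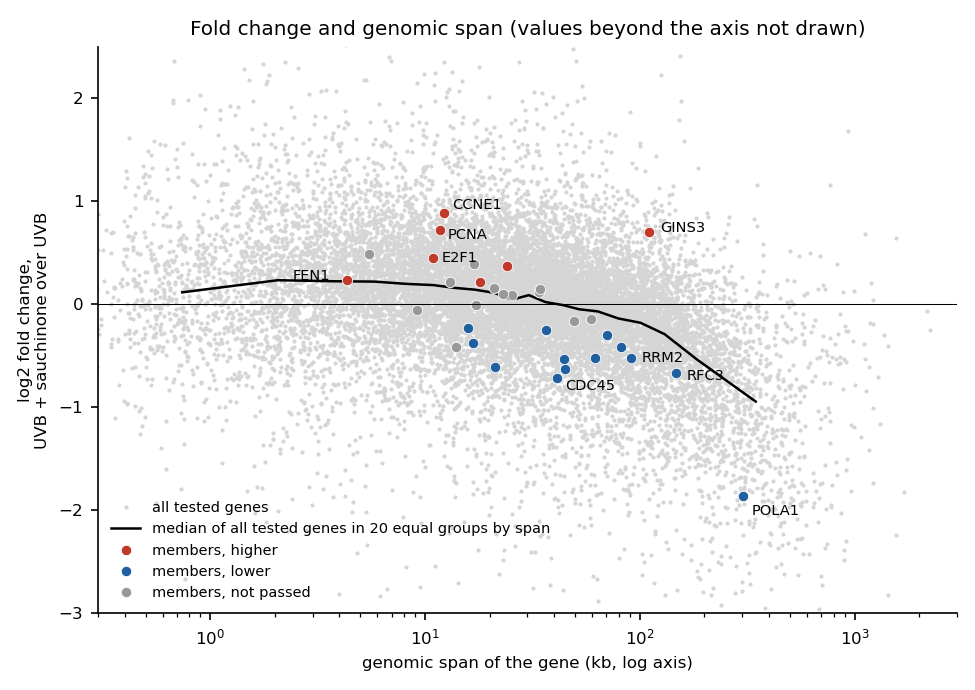
Log2 fold change of UVB + sauchinone over UVB against the genomic span of each gene in kb on a log axis, for all tested genes (light grey), the members (red higher, blue lower, dark grey not passed) and the median of all tested genes in equal groups by span (black line). POLA1 lies at −1.86 and 303 kb, at the long end where the line falls, CCNE1 and PCNA lie above the line among short genes, and GINS3 lies above it at its deposited span of 111 kb.

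**Figure D4:**
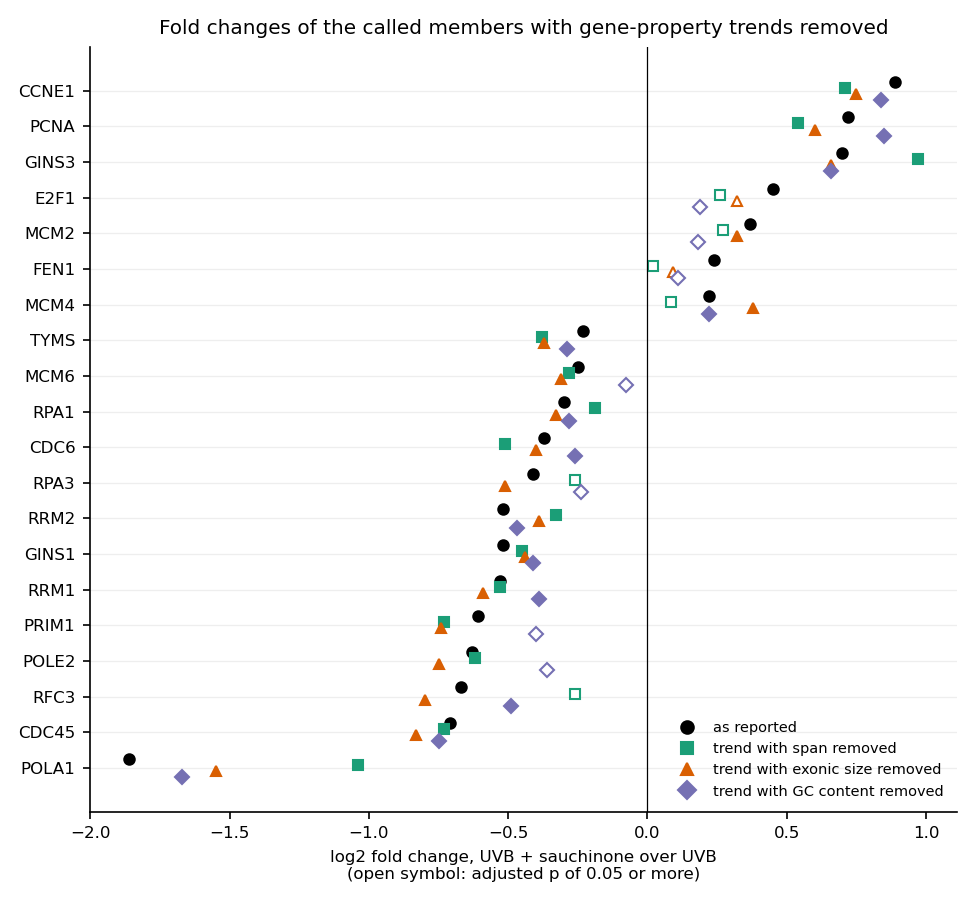
Log2 fold change of UVB + sauchinone over UVB for the 20 members that passed, as reported (black circles) and with the trend of counts with genomic span (green squares), exonic size (orange triangles) or GC content (purple diamonds) removed; open symbols did not pass. No member changes side, POLA1 is at −1.04 and RFC3 at −0.26 with the span trend removed, and E2F1 and FEN1 are open under all 3 corrections.

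Other genes of replication, listed by their role, also went both ways. Of 51 tested, 6 rose, 17 fell and 28 did not pass, with a median log2 fold change of −0.062. That is 45.1% called, against 49.6% of all tested genes. The count that rose was 13 with the GC trend removed and 9 without UVB replicate 3. The largest rises were those of POLE3 (0.96 ± 0.081) and POLE4 (0.47 ± 0.11), the small histone-fold subunits of DNA polymerase epsilon, and of GMNN (0.47 ± 0.11), which encodes geminin, the inhibitor of CDT1. The edgeR adjusted p was 2.1e-09 for POLE3, 9.2e-04 for POLE4 and 0.0013 for GMNN. The largest falls were those of PRIM2, the regulatory subunit of primase, at −1.82 ± 0.10 (edgeR adjusted p = 4.0e-12), ORC3, a subunit of the origin recognition complex, at −1.04 ± 0.098 (edgeR adjusted p = 1.1e-08), and WDHD1, which links polymerase alpha to the helicase, at −1.02 ± 0.13 (edgeR adjusted p = 1.5e-06). PRIM2 spans 332 kb and had a change of −0.97 with the span trend removed.

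Of 26 tested regulators of the G1/S step outside the set, 7 rose, 9 fell and 10 did not pass, with a median of −0.14. The share called was 61.5%, against 49.6% of all tested genes. CDKN2B, an inhibitor of CDK4 and CDK6, averaged 26.1 ± 4.65 CPM in UVB + sauchinone and 10.4 ± 1.45 CPM in UVB (SD, n = 3 each), a rise of 2.51-fold (edgeR adjusted p = 3.8e-08). CDC25A, a phosphatase that activates CDK2, rose by 0.75 ± 0.12 on the log2 scale (edgeR adjusted p = 1.6e-05), and E2F6, a repressor of the family, by 0.70 ± 0.10 (edgeR adjusted p = 7.4e-06). CCNA2, the cyclin of S phase and G2, averaged 12.3 ± 2.33 CPM in UVB + sauchinone and 30.1 ± 3.44 CPM in UVB, a fall of 2.45-fold (edgeR adjusted p = 2.1e-08). SKP2, which marks the CDK inhibitor p27 for destruction, and RBL1, a relative of the retinoblastoma protein, each had a change of −0.83, with SE 0.10 for SKP2 and 0.15 for RBL1 (edgeR adjusted p = 5.4e-07 for SKP2 and 6.1e-05 for RBL1). Of 20 genes of mitosis, 17 fell (85.0%) and 3 did not pass, while 24.9% of all tested genes fell. The median of the mitosis genes was −0.96, against −0.056 for the members. The difference between these lists was not tested.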

How the data were processed

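RNA was sequenced in 6 libraries, 3 of UVB + sauchinone and 3 of UVB, mapped to their columns by the names in the labels. The authors deposited raw counts per gene, the FPKM of each gene and library, gene coordinates and exonic sizes. The deposited FPKM could be rebuilt from counts, exonic sizes and library totals within 0.0050, so they served only to compare levels between genes. The genome build was GRCh38, as given in the submitters' processing notes. No source used here names the aligner, the counter, the annotation release or the use of strand in counting, so genes with an overlapping partner are uncertain. Per the labels' protocols, RNA was selected by poly(A) tail or, alternatively, by removal of ribosomal RNA, and libraries kept strand. Named pseudogenes of members, 15 in all, held 11 counts over all libraries.

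The test on counts was that of edgeR 4.0.16 in R 4.3.3 (filterByExpr, TMM scaling, quasi-likelihood test) and Benjamini-Hochberg adjustment over the 15704 genes kept, with 0.05 as threshold. The median SE of a log2 fold change was 0.12. CPM are computed here from counts with TMM-scaled library sizes. A further 16 analyses used DESeq2 1.42.0, limma 3.58.1 voom, 3 other scalings, no filter, a filter of 1 CPM in 3 libraries, the replicate number as a block, per-library lowess offsets removing a trend with span or exonic size, and each library left out in turn. A GC offset from GENCODE 29 transcripts (98.2% of tested genes) was added after seeing the data. The scripts were tested on simulated data. Members were all 34 genes given; of other replication and G1/S genes the 3 largest rises and falls past the threshold are named. The members and lists were chosen with earlier results of these data known. Ratios of FPKM had two-sided exact permutation tests.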

Additional observations from a re-analysis of the deposited data

How the results depend on the processing

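Over the members and 17 alternatives, 488 gene values kept their direction and side of the threshold, 50 kept the direction but lost the call, 11 gained one and 12 changed direction, all 12 in members that had not passed. Those were MCM5 (−0.0016 with the span trend removed, −0.086 with the GC trend removed), MCM7 (−0.13 to 0.064 with a library left out, above 0 without UVB replicate 2), POLD1 (−0.16 with the GC trend removed, −0.088 to 0.27 with a library left out, below 0 without UVB replicate 3), RFC4 (0.036 with library totals, 0.13 with the GC trend removed, −0.092 to 0.12 with a library left out, including 0.041 without UVB replicate 3), RPA2 (−0.0048 with the span and −0.044 with the exonic size trend removed) and TK1 (−0.018 with the GC trend removed). The count of members that rose, 7, was 4 without a filter on low counts and 3 with the span trend removed, and 4 to 8 with a library left out, 4 without UVB replicate 1 or UVB + sauchinone replicate 2. The count that fell, 13, was 9 to 13 with a library left out. Other replication genes that rose, 6, were 13 with the GC trend removed, and 5 to 9 with a library left out; 13 to 16 fell. With the replicate number as a block 7280 genes were called instead of 7786, with 5 members higher and 12 lower. Deviations of same-numbered libraries correlated at 0.007, −0.078 and −0.031, and those of differently numbered libraries at −0.07 to 0.098. These values show no sign of pairing by number, but so few libraries cannot exclude it. The causes were not tested. E2F2 had too few counts to be tested.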

Other observations

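Subunits outside the set, chosen after their values were seen, were placed beside the members of the same complexes. Calls in both directions were found in DNA polymerase epsilon and in GINS, and in 1 direction in the other complexes given here. In the complex of DNA polymerase alpha and primase, which starts every new strand, the log2 fold change was −1.86 for POLA1, −1.82 for PRIM2 and −0.61 for PRIM1. The remaining subunit, POLA2, did not pass, at 3.92 ± 0.796 CPM in UVB + sauchinone and 3.86 ± 0.0332 CPM in UVB (SD, n = 3 each; log2 fold change 0.020 ± 0.20, edgeR adjusted p = 0.95). In DNA polymerase epsilon, the leading-strand polymerase, POLE2 fell by 0.63 and POLE3 rose by 0.96. POLE3 averaged 119 ± 8.30 CPM in UVB + sauchinone and 61.5 ± 2.02 CPM in UVB, and the catalytic subunit POLE did not pass (−0.21 ± 0.10, edgeR adjusted p = 0.091). The spans of POLA1 and PRIM2 are 303 kb and 332 kb, and that of POLE3 is 3.44 kb.

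In DNA polymerase delta, the lagging-strand polymerase, POLD2 rose by 0.33 ± 0.095 (edgeR adjusted p = 0.0055), while POLD1, POLD3 and POLD4 did not pass, at 0.12, −0.15 and 0.17. In the GINS complex, GINS4 fell by 0.29 ± 0.11 (edgeR adjusted p = 0.026), so that GINS3 was the only one of its subunits that rose. In the clamp loader, RFC1 fell by 0.24 ± 0.092 (edgeR adjusted p = 0.031), and RFC2 and RFC5 did not pass, at −0.056 and 0.19.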
